A study of Mus musculus with 246 samples.

Results

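The 4 EGR transcription factors Egr1, Egr2, Egr3 and Egr4 and their corepressors Nab1 and Nab2 were followed in 6 brain regions of mice killed with or without a preceding social interaction. The 6 genes were taken from the count table by their names, and all 6 were found among its 56691 genes. Each was compared between the SocialInteraction and the NoInteraction mice within every region, pooled over the 3 conditions of the study and within each condition.

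EGR proteins are zinc finger transcription factors that bind GC-rich sites. Their genes are immediate early genes: neuronal activity and growth factors switch them on within minutes through kinases of the MAPK pathway, the serum response factor SRF with its ELK partners, and CREB. Egr1 (Zif268) is the member most often used as a marker of neuronal activity, Egr2 (Krox20) also drives myelination in Schwann cells, Egr3 acts in muscle spindle development and in neuronal plasticity, and Egr4 is a shorter, strongly inducible relative. NAB1 and NAB2 bind EGR1, EGR2 and EGR3 and repress transcription from their target sites, with NAB2 acting together with the NuRD chromatin remodelling complex. EGR4 lacks the domain that NAB proteins bind, and NAB2 is itself induced by EGR proteins and thereby takes part in negative feedback.

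The sequences upstream of the gene starts are shown because 3 of these genes carry letters of the regulators named above. RefSeq (GRCm38.p6) gave windows of 250 bases that end just before a gene start for 4 of the 6 genes, Egr2, Egr4, Nab1 and Nab2. Capitals mark matches, on either strand, to the CArG box bound by SRF, to TGACG, which is the core letters of a CREB site and overlaps the full site TGACGTCA, and to GCGNGGGCG, the letters of an EGR site. For Egr2 the table holds 5 windows of different gene starts. The window shown is 1 of 3 that overlap and share these matches, another (chr10:67537316-67537565) held a CArG box and no TGACG, and the farthest (chr10:67535249-67535498) held none of the letters.
Egr2, chr10:67537619-67537868, plus strand, with TGACG upstream and downstream of the CArG box, which lies 72 to 63 bases before the start: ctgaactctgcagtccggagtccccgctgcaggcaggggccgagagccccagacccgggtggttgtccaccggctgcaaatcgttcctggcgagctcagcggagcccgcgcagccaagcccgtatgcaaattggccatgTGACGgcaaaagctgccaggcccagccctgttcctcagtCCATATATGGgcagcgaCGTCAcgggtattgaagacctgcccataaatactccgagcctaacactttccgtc
Egr4, chr6:85513590-85513839, minus strand, with a pair of TGACG matches, the farther 177 to 173 bases before the start: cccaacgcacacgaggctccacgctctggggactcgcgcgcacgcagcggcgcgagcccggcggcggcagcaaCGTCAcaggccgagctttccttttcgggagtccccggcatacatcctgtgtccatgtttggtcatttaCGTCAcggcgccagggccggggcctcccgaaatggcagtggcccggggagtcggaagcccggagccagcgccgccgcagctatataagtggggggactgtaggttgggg
Nab1, chr1:52500449-52500698, minus strand, with TGACG 123 to 119 bases before the start and the EGR letters on both sides of it, as far as 141 to 133 and as near as 38 to 30 bases: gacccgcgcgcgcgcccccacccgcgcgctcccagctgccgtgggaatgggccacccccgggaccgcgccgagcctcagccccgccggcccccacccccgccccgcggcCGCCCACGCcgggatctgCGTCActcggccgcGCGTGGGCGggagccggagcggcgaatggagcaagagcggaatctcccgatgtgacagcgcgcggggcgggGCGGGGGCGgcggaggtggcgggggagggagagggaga
The Nab2 window, chr10:127666704-127666953 on the minus strand, held none of these letters. The windows go by RefSeq starts. In the GENCODE spans given below, the Nab2 window and the Egr2 window shown lie inside the gene, and the Nab1 window does so for the most part. The sequence before the GENCODE start of Nab2 was not searched. Of 32851 such windows of 27025 genes, 4.7% held the EGR letters, 1.47% a CArG box, 1.55% the full CREB site TGACGTCA and 17.8% its core TGACG. A match describes letters and not a site in use.

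All mice were males of the outbred CD1 stock, and the paper describes the RNA samples as taken from adults. Ctrl_Veh litters grew up with standard bedding, and ELA_Veh and ELA_SAFit2 litters went through early life adversity (ELA), in which dam and pups lived for a week from shortly after birth on a mesh floor with little nesting material. SAFit2, an inhibitor of the glucocorticoid receptor cochaperone FKBP51, was injected once under the skin of the dam in a slow-release gel and reached the pups through the milk, while the dams of both Veh conditions received the empty gel. The study had no group of unstressed mice given SAFit2, so effects of SAFit2 without ELA cannot be assessed. From weaning on, mice of the 3 conditions shared cages. The SocialInteraction mice (6 Ctrl_Veh, 7 ELA_Veh and 7 ELA_SAFit2) had spent 10 minutes with an unfamiliar mouse before they were killed, and the NoInteraction mice (7 of each condition) had not. The time between that encounter and the collection of the brain is not given in the sources used here. The paper states that brains were collected after phenotyping in the Social Box, a group arena with continuous tracking, under basal conditions. The paper does not describe the encounter, so whether mice of both sets had been in the Social Box is not given. Each library holds poly(A) RNA of bilateral punches from 1 region of 1 of the 41 mice. The regions were the ventral hippocampus (vHipp), the shell of the nucleus accumbens (Nacc), the dorsomedial part of the thalamus (DMT), the basolateral amygdala (BLA) and, from the cortex, the anterior cingulate (ACC) and medial prefrontal (mPFC) areas.

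In the GENCODE M21 annotation of GRCm38, Egr3 (ENSMUSG00000033730.5) lies at chr14:70077203-70082614 on the plus strand, Egr1 (ENSMUSG00000038418.8) at chr18:34859823-34864984 on the plus strand, Egr2 (ENSMUSG00000037868.16) at chr10:67535475-67542188 on the plus strand and Egr4 (ENSMUSG00000071341.5) at chr6:85511121-85513589 on the minus strand. Nab1 (ENSMUSG00000002881.15) spans chr1:52457294-52500679 and Nab2 (ENSMUSG00000025402.13) chr10:127660918-127668568, both on the minus strand. All 6 are protein coding. The counts are sums over all exons of a gene, so exons, introns and isoforms cannot be told apart in them.

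Total counts per library lay between 20804247 and 43351424. In the Nacc, 12 of the 41 libraries matched another mouse than the labelled one, with correlations of -0.33 to 0.22 with the labelled mouse and 0.91 to 0.98 with the best match over 60 genes that differ between mice. Of these 12, 6 carried the label SocialInteraction, and in 8 the matched mouse belonged to the other set. No library of the other 5 regions did so. Nacc values are therefore given with and without these libraries. Summed marker genes had their highest median in the region they name. Thalamus markers (1702.7 to 3301.8 CPM, counts scaled to the library total, in the DMT) and cortex markers (415.7 to 737.4 CPM in the mPFC and ACC) did not overlap with other regions, while hippocampus markers in the vHipp (846.2 to 1266.2 CPM) overlapped with the Nacc, and amygdala markers in the BLA (369.1 to 684.4 CPM) with the vHipp. Striatum markers ran from 968.8 to 3679.5 CPM in the Nacc, and BLA libraries held them too (396.9 to 2770.2 CPM), beside choroid plexus markers (23.2 to 5710.9 CPM). Libraries in which markers of a neighbouring area exceeded 3 times the region's median numbered 20 in the DMT, 11 in the mPFC, 5 each in the ACC and the vHipp, and 1 in the Nacc. Mouse numbers 1 to 64 came in runs of 16 that hold mice of 1 set each, so for these mice the set cannot be told apart from whatever the runs share.

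Without social interaction, Egr1 and Egr3 were the most abundant of the 6 genes in 5 regions, and the DMT had little of any EGR gene but Egr1. Per kilobase of exon, Egr1 stood at 42.8 ± 15.1 CPM in the ACC (SD, n = 21 mice here and for the next values), at 42.6 ± 19.2 in mPFC libraries, at 36.8 ± 12.5 in Nacc, at 24.7 ± 4.52 in BLA, at 14.7 ± 3.57 in vHipp and at 9.44 ± 2.44 in DMT libraries. Egr3 per kilobase reached 34.5 ± 7.49 CPM in the ACC, 29.6 ± 7.47 in mPFC, 25.2 ± 5.45 in Nacc, 23.4 ± 2.22 in vHipp and 22.8 ± 2.3 in BLA libraries, but 0.77 ± 0.247 in the DMT. The vHipp was the region in which the mean of Egr3 lay above that of Egr1. Egr4 ranged from 0.279 ± 0.134 in the DMT to 7.91 ± 2.91 CPM per kilobase in the Nacc, and Egr2 from 0.019 ± 0.0123 in the DMT to 1.45 ± 1.57 in the mPFC. The corepressors varied less between regions, Nab1 from 5.93 ± 0.557 in the BLA to 8.93 ± 0.543 in the DMT and Nab2 from 5.3 ± 0.596 in the DMT to 15.5 ± 2.55 in the Nacc.

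**Figure D1:**
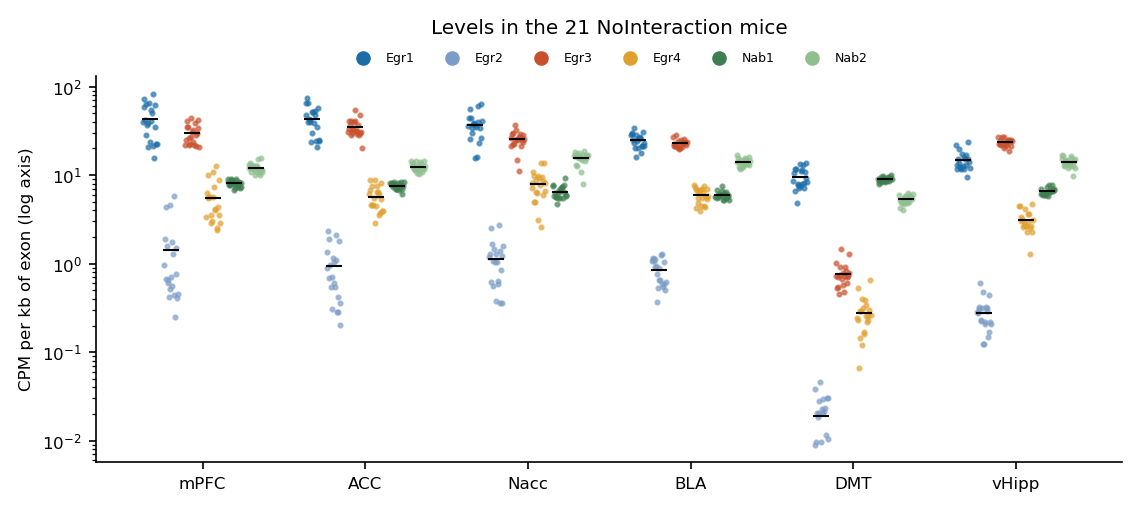
Levels of the 6 genes in the 21 NoInteraction mice in CPM per kilobase of exon, on a log axis, by region. Each point is a library, each black bar the mean of 21 libraries, and libraries at 0 (3 for Egr2 in the DMT) are not drawn. Egr3 lies at 22.8 to 34.5 on average in 5 regions and at 0.77 in the DMT, whereas Nab1 has its highest mean, 8.93, in the DMT.

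The order of the regions was tested between neighbours with paired sign-flip permutation tests on log2(CPM + 0.5) over the 21 mice (30 tests, two-sided, 100000 resamples, so that 2e-05 is the smallest p they can give). Of the 30 steps, 15 passed an adjusted p of 0.05. For Egr3, the ACC (mean 7.22) stood above the mPFC (6.99) by 0.23 (adjusted p = 0.00249, higher in 16 of 21 mice), the steps from mPFC to Nacc (6.76), vHipp (6.69) and BLA (6.65) did not pass, and the BLA stood above the DMT (1.91) by 4.74 (adjusted p = 7.5e-05, 21 of 21 mice). For Egr1, the ACC, mPFC and Nacc (7.50, 7.43 and 7.29) were not separated, the Nacc stood above the BLA by 0.51 (adjusted p = 0.000873), and the BLA above the vHipp by 0.76 and the vHipp above the DMT by 0.64 in 21 of 21 mice (adjusted p = 7.5e-05 each). Egr2 fell into an upper group of mPFC, Nacc, BLA and ACC (1.96, 1.96, 1.69 and 1.64), from which the vHipp (0.48) and then the DMT (-0.83) were separated by 1.16 and 1.31 (adjusted p = 7.5e-05 each). Egr4 was highest in the Nacc (4.03), 0.33 above the BLA (adjusted p = 0.0176), and the BLA, ACC and mPFC (3.70, 3.61 and 3.46) were not separated. Nab1 had an order of its own, with the DMT (5.21) above the mPFC (5.06; adjusted p = 0.00145), the mPFC above the ACC (4.97; adjusted p = 0.0106) and the ACC above the vHipp (4.77; adjusted p = 0.0002). For Nab2, the Nacc, vHipp and BLA (5.50, 5.37 and 5.37) stood above the ACC and mPFC (5.21 and 5.16), and the DMT stood 1.16 below the mPFC (adjusted p = 7.5e-05). The Nacc levels include the 6 NoInteraction libraries that matched another mouse.

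Egr3 was higher in the SocialInteraction mice than in the NoInteraction mice in the mPFC, ACC, BLA and DMT. The difference was 1.85-fold in the mPFC, 1.62-fold in the DMT, 1.55-fold in the ACC and 1.22-fold in the BLA, and it did not pass the test in the Nacc or vHipp. Among all genes tested, ordered by p, Egr3 was number 3 of 15722 in the ACC, number 4 of 15812 in the mPFC, number 7 of 15992 in the BLA, number 137 of 15847 in the DMT and number 2 of 17381 in counts summed over the 6 regions of a mouse. It was the only one of the 6 genes called in more than 1 region.

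In the mPFC, Egr3 stood at 90.4 CPM in the lowest, 126 in the median and 193 in the highest of the 21 NoInteraction libraries, and at 158, 241 and 318 CPM in the 20 SocialInteraction libraries. Of the SocialInteraction libraries, 17 lay above every NoInteraction library, and all 20 lay above the NoInteraction median. The pooled log2 difference was 0.89 (SE 0.10, adjusted p = 1.78e-07). In this region, 4.81% of all genes tested were called higher and 2.59% lower. Without the 11 libraries that held markers of a neighbouring area, mostly olfactory bulb (up to 234.3 CPM in NoInteraction and 378.0 CPM in SocialInteraction libraries) and striatum, the difference was 0.93 (SE 0.12, adjusted p = 1.88e-05).

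In the ACC, the NoInteraction libraries ran from 88.9 over a median of 144 to 237 CPM of Egr3, and the SocialInteraction libraries from 179 over 236 to 324 CPM. Of the SocialInteraction libraries, 10 of 20 exceeded the highest NoInteraction library, a single ELA_Veh library at 237 CPM, and 18 of 21 NoInteraction libraries lay below the lowest SocialInteraction library. The pooled log2 difference was 0.63 (SE 0.08, adjusted p = 9.4e-06), against 2.42% of genes called higher and 1.74% lower.

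In the BLA, Egr3 ran from 86.98 to 125.9 CPM around a mean of 100.6 without and from 97.73 to 158.2 CPM around a mean of 123.0 with social interaction. The ranges overlapped, with 6 of 20 SocialInteraction libraries above the highest NoInteraction library. Below the lowest SocialInteraction library lay 9 of 21 NoInteraction libraries, and 19 of 20 SocialInteraction libraries lay above the NoInteraction median. The pooled log2 difference was 0.28 (SE 0.05, adjusted p = 0.00215), in a region with 0.825% of genes called higher and 0.669% lower.

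In the DMT, where Egr3 is scarce, NoInteraction libraries held 1.98, 3.18 and 6.47 CPM (lowest, median and highest) and SocialInteraction libraries 2.63, 4.28 and 14.1 CPM, which are 63 to 209 and 68 to 434 counts. The pooled log2 difference was 0.70 (SE 0.17, adjusted p = 0.0187), with 1.04% of genes called higher and 0.555% lower. Of the 5 SocialInteraction libraries above every NoInteraction library, 3 also held high inhibitory neuron markers (331.2, 374.6 and 351.4 CPM) and choroid plexus markers (1390.8, 466.7 and 913.0 CPM), and the other 2 did not (47.3 CPM and 90 CPM, and 6.6 and 7.5 CPM). Over all DMT libraries the 6 inhibitory neuron markers summed to 29.5 to 207.1 CPM without and 27.4 to 374.6 CPM with social interaction, and the 5 choroid plexus markers to 5.0 to 1062.6 and 6.6 to 1390.8 CPM. No marker of either list was at 0 in every library. Without the 20 DMT libraries that stood apart in such markers, 10 of each set, the difference was 0.59 and no longer passed (adjusted p = 0.364). The part of these tissues in the DMT result was otherwise not tested. In bulk tissue, fewer cells that express a gene and less RNA per cell cannot be told apart.

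In the Nacc, Egr3 ran from 48.97 over 113.8 to 159.6 CPM without and from 89.95 over 113.7 to 150 CPM with social interaction, a pooled log2 difference of 0.05 (SE 0.09, adjusted p = 1). Without the mismatched libraries, the 15 NoInteraction libraries ran from 65.3 over 110.7 to 133 CPM and the 14 SocialInteraction libraries from 94.4 over 116 to 150 CPM, a difference of 0.13 (SE 0.08, adjusted p = 0.833). With all 41 libraries, the test called 0% of genes in the Nacc, higher or lower, and DESeq2 called 0. At an unadjusted p under 0.05 stood 391 genes. Without the mismatched libraries the test called 4 of 15618 genes higher and 0 lower, with 1115 at an unadjusted p under 0.05. In the vHipp, Egr3 ran from 81.5 over 104 to 119 CPM without and from 96.1 over 109 to 121 CPM with social interaction. Of the libraries, 4 of 21 without lay below the lowest with social interaction, and 1 of 20 with lay above the highest without. The difference was 0.07 (SE 0.04, adjusted p = 0.486), where 0.821% of genes were called higher and 0.388% lower.

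The runs of mouse numbers bear on these values. With blocks of 16 mouse numbers in the fit, which leave the comparison to the 9 NoInteraction and 8 SocialInteraction mice numbered 65 and above, the Egr3 difference was 0.74 in the mPFC (SE 0.17, adjusted p = 0.0392), 0.61 in the ACC (SE 0.13, adjusted p = 0.125), 0.53 in the DMT (SE 0.28, adjusted p = 0.915) and 0.16 in the BLA (SE 0.08, adjusted p = 0.647). Only the mPFC passed. With blocks of 32 numbers, each of which holds mice of both sets, the differences were 0.88, 0.62, 0.68 and 0.28 in this order of regions, and all 4 passed (adjusted p = 4.21e-07, 3.16e-06, 0.0319 and 0.00501). Up to number 64, each such block joins 1 run of each set, so blocks of 32 do not separate set from run there. The other genes moved too: with blocks of 16, 12 of 35 pooled tests of the 6 genes had an unadjusted p under 0.05 against 8 without blocks, and the estimates of Egr1, Egr2 and Egr4 in the cortex rose, as given with each gene.

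**Figure D2:**
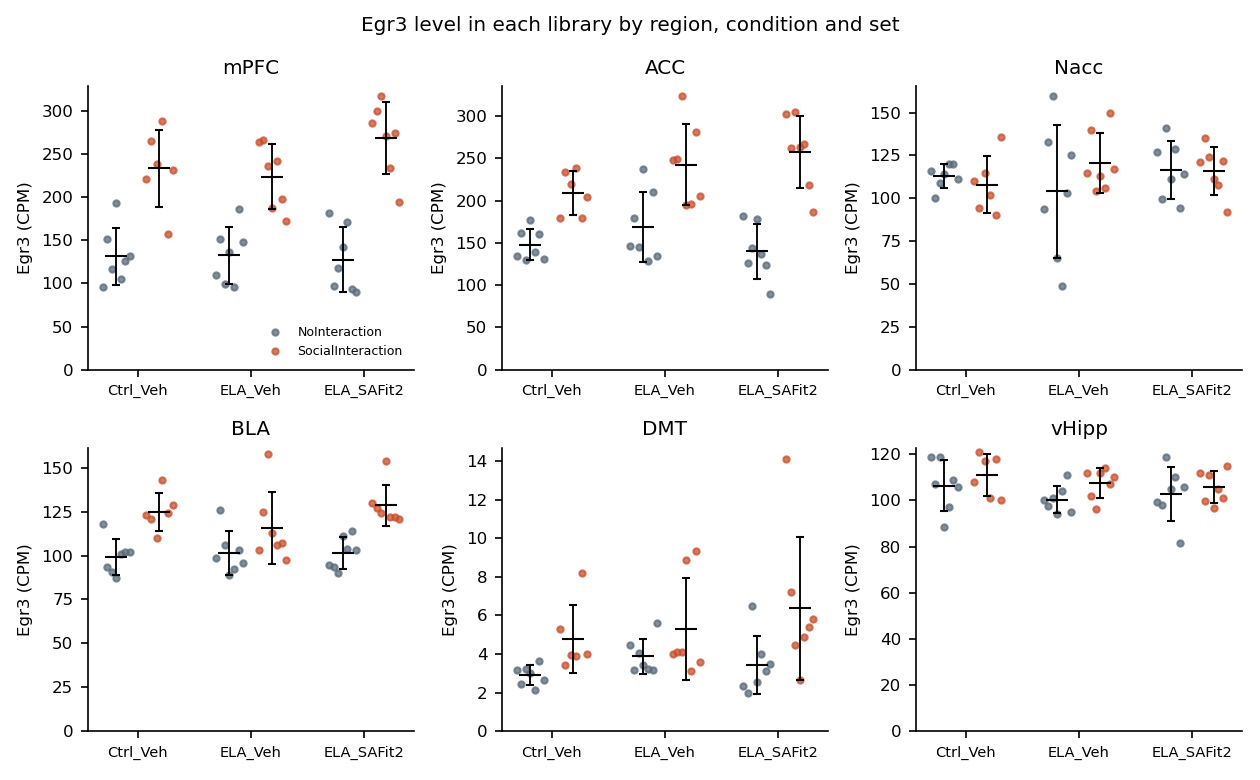
Egr3 in CPM (linear axis from 0) in each library, by region, condition and set. Points are libraries, horizontal bars group means and error bars 1 SD over 6 or 7 mice. In the mPFC the SocialInteraction libraries lie between 158 and 318 CPM and the NoInteraction libraries between 90.4 and 193 CPM, while in the vHipp both sets lie between 81.5 and 121 CPM.

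Whether the response of Egr3 differed between regions was tested in 1 model of all libraries, as the response of a region minus the mean response of the other 5. The mPFC response was larger by 0.54 on the log2 scale (SE 0.10, adjusted p = 0.000378), the Nacc response smaller, with a difference of -0.47 (SE 0.10, adjusted p = 0.0497), and the vHipp response smaller, with a difference of -0.45 (SE 0.10, adjusted p = 0.0441). Such calls were made for 0.138% of all genes in the mPFC (larger response), 0.0115% in the Nacc and 0.0115% in the vHipp (smaller response). The ACC (0.24, adjusted p = 1), BLA (-0.18, adjusted p = 1) and DMT (0.32, adjusted p = 0.975) did not pass, where 0%, 0.00575% and 0.0518% of genes were called in either direction. These 3 were the calls among 36 tests of the 6 genes, with 8 at an unadjusted p under 0.05. Without the Nacc, with its mismatched libraries, the mPFC (0.46, adjusted p = 0.0147) and vHipp (-0.56, adjusted p = 0.00141) differences still passed. The Nacc difference itself includes these libraries and was not fitted without them.

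Egr1 was spread widely within both sets, and no region passed the test. In the mPFC it ran from 70.6 over 180 to 372 CPM without and from 111.4 over 231.9 to 334.3 CPM with social interaction, a pooled log2 difference of 0.27 (SE 0.18, adjusted p = 0.437). The highest library of the region was a NoInteraction library, and the SocialInteraction range lay within the NoInteraction range. ACC values were 94.2, 186 and 334 CPM (lowest, median and highest) without and 118, 235 and 315 CPM with social interaction (0.24, SE 0.14, adjusted p = 0.398). The differences were 0.15 in the DMT, 0.13 in the BLA, 0.08 in the vHipp and -0.14 in the Nacc, where it was -0.03 without the mismatched libraries. With blocks of 16 mouse numbers the Egr1 difference was 0.74 in the mPFC (SE 0.26, unadjusted p = 0.00856, adjusted p = 0.241) and 0.70 in the ACC (SE 0.19, unadjusted p = 0.000693, adjusted p = 0.222), close to that of Egr3 in the same fits (0.74 and 0.61), and with blocks of 32 it was 0.28 and 0.26.

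Egr2 had point estimates close to those of Egr3 in the cortex but a larger error. In the ACC it ran from 0.688 over 2.43 to 7.95 CPM without and from 1.29 over 5.03 to 13.9 CPM with social interaction, a pooled log2 difference of 0.70 (SE 0.27, adjusted p = 0.15, unadjusted p = 0.0143). In the mPFC the NoInteraction libraries ran from 0.846 over 2.40 to 19.8 CPM and the SocialInteraction libraries from 1.61 over 6.56 to 22.7 CPM (0.68, SE 0.35, adjusted p = 0.286). Of the 20 SocialInteraction libraries, 18 lay above the NoInteraction median in the mPFC and 15 in the ACC, but 1 and 2 above the highest NoInteraction library. With blocks of 16 mouse numbers the Egr2 difference was 1.37 in the ACC (SE 0.40, unadjusted p = 0.00152, adjusted p = 0.277) and 1.33 in the mPFC (SE 0.56, unadjusted p = 0.0245, adjusted p = 0.358), above the Egr3 difference in the same fits, and with blocks of 32 it was 0.72 and 0.65. The differences were 0.25 in the BLA, 0.22 in the vHipp and -0.18 in the Nacc (0.13 without the mismatched libraries). In the DMT, where libraries held 0 to 6 counts of Egr2, the gene did not pass the filter on low counts and was not tested.

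Egr4 passed in no region. Its pooled log2 differences were 0.22 in the ACC (SE 0.13, 6.18, 11.9 and 19.0 CPM without and 4.78, 15.3 and 20.9 CPM with social interaction), 0.14 in the BLA, 0.10 in the mPFC, 0.03 in the vHipp and -0.12 in the Nacc (-0.04 without the mismatched libraries). With blocks of 16 mouse numbers it was 0.58 in the ACC (SE 0.22, unadjusted p = 0.0137, adjusted p = 0.557) and 0.40 in the mPFC. In the DMT the difference was 0.41 (SE 0.28, adjusted p = 0.598), with 0.141, 0.546 and 1.40 CPM without and 0.233, 0.565 and 5.59 CPM with social interaction. The medians were nearly equal there, and the highest value came from 1 ELA_SAFit2 mouse, the one that was also highest in Egr3 and in choroid plexus markers. With blocks of 16 the DMT difference was -0.05.

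Of the corepressors, Nab2 was higher with social interaction in the DMT and Nab1 passed in no region. Nab2 in the DMT ran from 11.96 over 15.6 to 18.3 CPM without and from 13.8 over 18.6 to 22.9 CPM with social interaction, and 11 of 20 SocialInteraction libraries lay above every NoInteraction library. The pooled log2 difference was 0.25 (SE 0.05, adjusted p = 0.00763). Without the 20 DMT libraries that stood apart it was 0.26 and did not pass (adjusted p = 0.278), in a fit of 21 libraries, and with blocks of 16 mouse numbers it was 0.17 (SE 0.08, adjusted p = 0.871). In the vHipp, Nab2 ran from 28.6 over 40.7 to 49.6 and from 38.5 over 44.9 to 55.4 CPM (0.13, SE 0.05, adjusted p = 0.249, and 0.25 with blocks of 16, adjusted p = 0.464). The other Nab2 differences lay between -0.02 and 0.05. Nab1 differences lay between -0.06 (BLA) and 0.06 (DMT, SE 0.03, adjusted p = 0.369), and medians were 33.4 and 32.9 CPM in the mPFC and 36.3 and 38.3 CPM in the DMT without and with social interaction.

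Over the 6 genes and 6 regions, 5 of 35 pooled tests were called higher and 0 lower, with 8 at an unadjusted p under 0.05, and DESeq2 also called 5. Of all genes, 4.81% (mPFC), 2.42% (ACC), 1.04% (DMT), 0.825% (BLA), 0.821% (vHipp) and 0% (Nacc) were called higher. In the same order, 2.59%, 1.74%, 0.555%, 0.669%, 0.388% and 0% were called lower. An unadjusted p under 0.05 (edgeR's quasi-likelihood test) was held by 391 of 15881 genes in the Nacc and up to 3081 of 15812 genes in the mPFC. With the counts of the 6 regions summed per mouse, Egr3 was higher by 0.44 on the log2 scale (SE 0.05, adjusted p = 3.23e-07), and the other 5 genes did not pass (0.01 to 0.36). On these sums, 4.71% of genes were called higher and 3.85% lower. Without the Nacc the Egr3 difference was 0.52 (adjusted p = 4.58e-08).

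**Figure D3:**
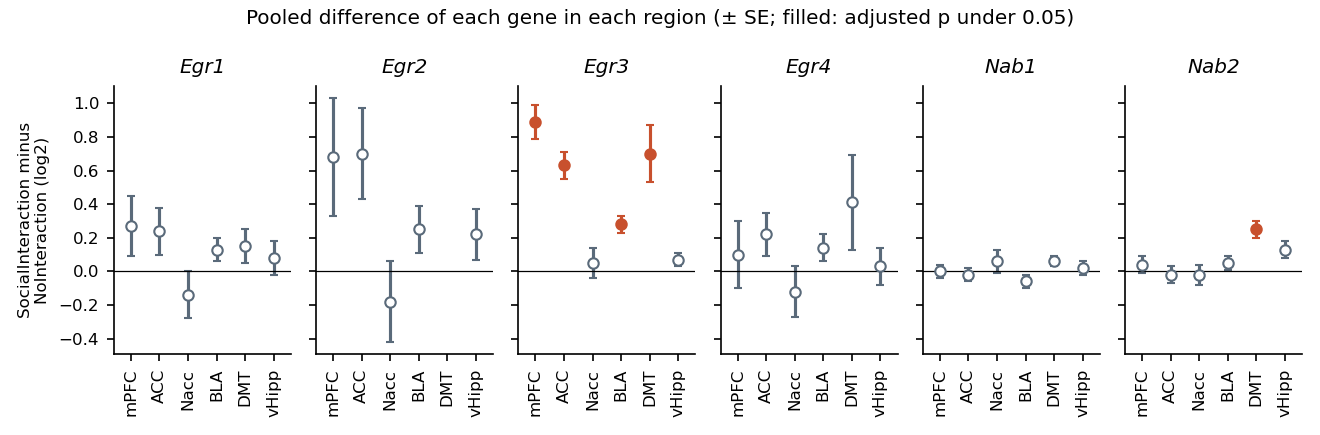
Pooled difference of SocialInteraction minus NoInteraction (log2, linear axis) of each gene in each region. Points are estimates of edgeR's quasi-likelihood fit, error bars 1 SE, and filled points have an adjusted p under 0.05. The 5 filled points are Egr3 in the mPFC (0.89), ACC (0.63), BLA (0.28) and DMT (0.70) and Nab2 in the DMT (0.25), and Egr2 in the DMT was not tested.

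Within conditions, Egr3 gave all 3 calls among the 35 tests made in each of 3 conditions, with 19 tests at an unadjusted p under 0.05. In the mPFC, Ctrl_Veh mice held 95.6, 126 and 193 CPM (lowest, median and highest) without and 158, 236 and 289 CPM with social interaction, a log2 difference of 0.83 (SE 0.17, adjusted p = 0.0283). ELA_Veh mice held 96.4, 136 and 186 CPM and 173, 236 and 267 CPM there (0.76, SE 0.17, adjusted p = 0.0668). ELA_SAFit2 mice held 90.4, 118 and 182 CPM and 195, 275 and 318 CPM (1.07, SE 0.17, adjusted p = 0.000357). The ELA_SAFit2 groups did not overlap, and in the other conditions 1 SocialInteraction library lay below the highest NoInteraction library. Of all genes, 0.152% (Ctrl_Veh), 0.0316% (ELA_Veh) and 0.911% (ELA_SAFit2) were called higher in the mPFC, and 0.367% had ELA_SAFit2 groups without overlap in this direction.

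In the ACC, the log2 differences of Egr3 were 0.50 in Ctrl_Veh (adjusted p = 0.186), 0.52 in ELA_Veh (adjusted p = 0.151) and 0.88 in ELA_SAFit2 mice (adjusted p = 0.00104). Ctrl_Veh libraries held 130, 139 and 177 CPM without and 179, 212 and 239 CPM with social interaction, and ELA_SAFit2 libraries 88.9, 137 and 182 CPM and 186, 263 and 305 CPM. In both conditions every SocialInteraction library lay above every NoInteraction library, as did 0.318% (Ctrl_Veh) and 0.261% (ELA_SAFit2) of all genes. The ELA_Veh libraries, at 128, 146 and 237 CPM and 195, 248 and 324 CPM, overlapped. The tests called 0%, 0.0191% and 0.0636% of genes higher in the ACC of Ctrl_Veh, ELA_Veh and ELA_SAFit2 mice. The BLA of ELA_SAFit2 mice was the remaining group pair without overlap (89.78, 103.3 and 113.8 CPM against 120.5, 124.4 and 154.0 CPM), a pattern that 0.1% of genes had.

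The other within-condition tests of the 6 genes did not pass. Egr3 differences were 0.33, 0.19 and 0.34 in the BLA and 0.74, 0.45 and 0.90 in the DMT of Ctrl_Veh, ELA_Veh and ELA_SAFit2 mice, and -0.06 to 0.22 in the Nacc and 0.04 to 0.10 in the vHipp. Few genes of any kind were called higher in these regions: 0% in each condition of the Nacc and of the BLA, 0.00631%, 0% and 0.0126% in the DMT and 0.0191%, 0% and 0.0254% in the vHipp, in the same order of conditions. On counts summed per mouse, Egr3 differences were 0.37 (adjusted p = 0.101), 0.39 (adjusted p = 0.0617) and 0.55 (adjusted p = 0.000399), where 0.0173%, 0.0115% and 0.961% of genes were called higher.

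The conditions were not shown to differ in these 6 genes. The largest difference between conditions in the Egr3 response of the mPFC or ACC was 0.38 on the log2 scale (SE 0.20, adjusted p = 0.844), the ELA_SAFit2 minus the Ctrl_Veh response in the ACC. Of 35 tests of a difference in response for each of 3 pairs of conditions, 0 were called by edgeR's quasi-likelihood test or by DESeq2, with 2 at an unadjusted p under 0.05 in each, and 0.00772% of tests over all genes were called. Levels were also compared between conditions within each set, ELA_Veh with Ctrl_Veh and ELA_SAFit2 with ELA_Veh. There, 0 of 140 tests of the 6 genes were called by either tool, with 2 at an unadjusted p under 0.05 in each, against 0.00079% of tests over all genes. In the NoInteraction mPFC the Egr3 medians were 126, 136 and 118 CPM in Ctrl_Veh, ELA_Veh and ELA_SAFit2 mice.

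With the mouse as the unit and no model, the mean of log2(CPM + 0.5) over the 6 regions was higher with social interaction for Egr3 in each condition. Ctrl_Veh mice had means of 6.40 ± 0.03 with (SD, n = 6) and 6.02 ± 0.07 without social interaction (n = 7), a difference of 0.38 (exact permutation test, two-sided, adjusted p = 0.00699). In ELA_Veh mice the means were 6.44 ± 0.14 and 6.07 ± 0.17 (n = 7 each, exact permutation test, adjusted p = 0.00524), and in ELA_SAFit2 mice 6.55 ± 0.17 and 6.02 ± 0.18 (n = 7 each, exact permutation test, adjusted p = 0.00524). All 6, 7 and 7 SocialInteraction mice lay above all NoInteraction mice of their condition, which gives the smallest p that such groups allow, 0.00117 for 6 against 7 and 0.000583 for 7 against 7. Of all genes, 0.299%, 0.144% and 0.311% were so separated in Ctrl_Veh, ELA_Veh and ELA_SAFit2 mice, and 2 of 17365 genes were in all 3 conditions. These were Egr3 and Pglyrp1, a peptidoglycan recognition protein gene that is named here because of this count. These means include the Nacc libraries that matched another mouse. Over the 5 other regions, the Egr3 differences were 0.47, 0.38 and 0.63 in Ctrl_Veh, ELA_Veh and ELA_SAFit2 mice (exact permutation tests, adjusted p = 0.00699 each), but the ELA_Veh sets then overlapped, with 6 of 7 SocialInteraction mice above all NoInteraction mice, and of all genes Pglyrp1 alone was separated in all 3 conditions. Within the runs of mouse numbers that hold both sets (8 SocialInteraction and 9 NoInteraction mice, with run and condition as terms), the Egr3 difference was 0.38 over 6 and 0.44 over 5 regions (exact permutation test, adjusted p = 0.0229 each), and that of the other 5 genes did not pass. Over the 5 regions, Egr1 (0.41), Egr2 (0.58) and Nab2 (0.15) had an adjusted p of 0.0586 each there (exact permutation test). Over 6 regions and all mice, none of the other 15 tests of the 6 genes passed (exact permutation tests, adjusted p of 0.267 and above).

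**Figure D4:**
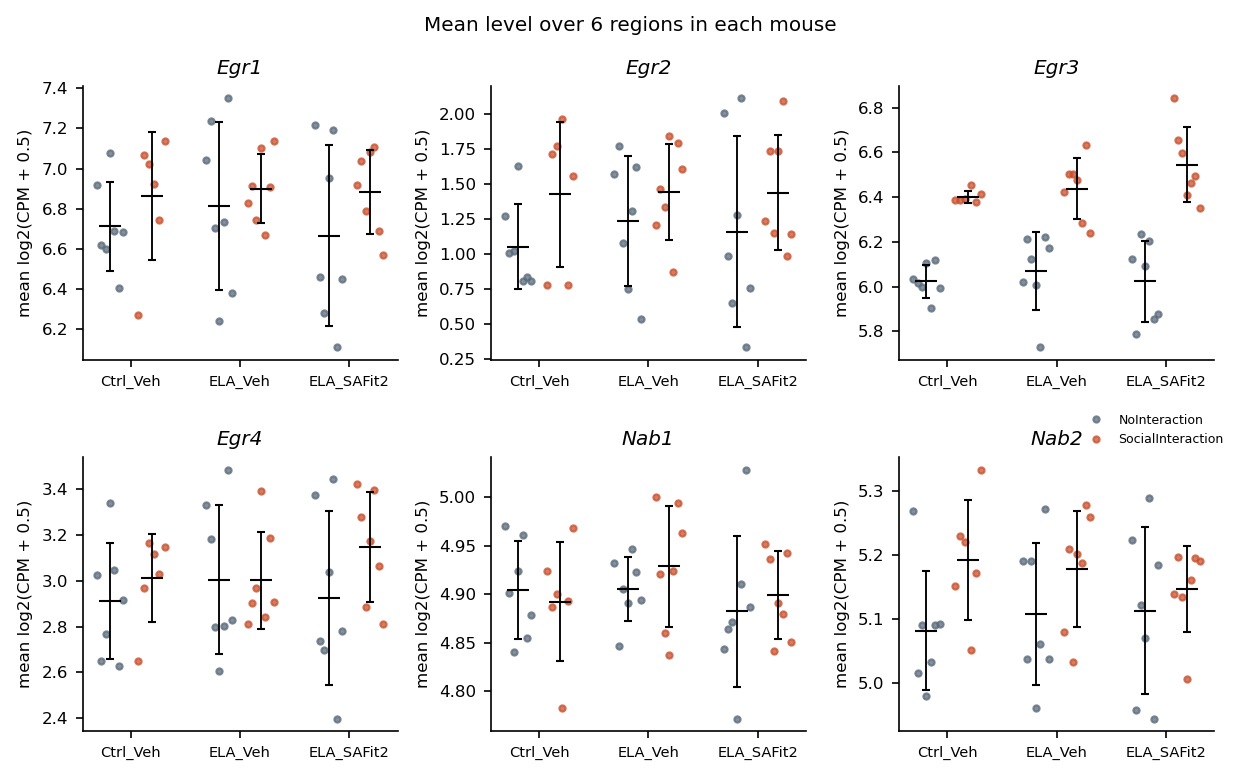
Mean of log2(CPM + 0.5) over the 6 regions in each of the 41 mice, by gene, condition and set (linear axes that do not start at 0 and differ between genes). Points are mice, horizontal bars means and error bars 1 SD over 6 or 7 mice. With all 6 regions in the mean, the sets do not overlap in any condition for Egr3, with means of 6.40 to 6.55 against 6.02 to 6.07, and overlap in every condition for the other 5 genes.

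Egr3 was next set against the other 5 genes within each library, since all 6 were measured in the same RNA. These log2 ratios were tested by permuting mice between sets within conditions (29 tests, 100000 resamples, two-sided), a comparison chosen after the values were seen. Relative to Egr1, Egr3 was higher with social interaction by 0.55 in the mPFC (permutation test, adjusted p = 0.00673), by 0.36 in the ACC (adjusted p = 0.0365) and by 0.15 in the BLA (adjusted p = 0.048). In the mPFC the log2 ratio of Egr3 to Egr1 was -0.44 ± 0.57 without and 0.11 ± 0.46 with social interaction (SD, 21 and 20 libraries). Relative to Egr4, Egr3 was higher by 0.75 in the mPFC (permutation test, adjusted p = 0.00029) and 0.42 in the ACC (adjusted p = 0.0136). Relative to Egr2 the change was 0.08 in the mPFC (permutation test, adjusted p = 0.864) and 0.00 in the ACC (adjusted p = 0.997), with SDs of 0.71 to 0.91 between libraries, so that a difference between Egr3 and Egr2 was not shown. Relative to Nab1 and Nab2, Egr3 was higher by 0.90 and 0.87 in the mPFC and by 0.67 each in the ACC (permutation test, adjusted p = 7.25e-05 each, from the smallest p that the resamples can give, 1e-05). In all, 14 of the 29 tests passed, 8 of them in the mPFC and ACC. These permutations do not take the runs of mouse numbers into account. Within the runs that hold both sets (8 and 9 mice), 0 of the 29 tests passed and 7 had an unadjusted p under 0.05 (exact permutation tests). The change of Egr3 relative to Egr1 was then -0.03 in the mPFC and -0.07 in the ACC, and relative to Egr4 it was 0.39 and 0.05. Relative to Nab1 and Nab2 it was 0.63 and 0.61 in the mPFC and 0.68 and 0.58 in the ACC (exact permutation tests, adjusted p of 0.0829 to 0.203). A larger change of Egr3 than of Egr1 was thus not seen within these runs, and for the mice numbered up to 64 set and run cannot be told apart.

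**Figure D5:**
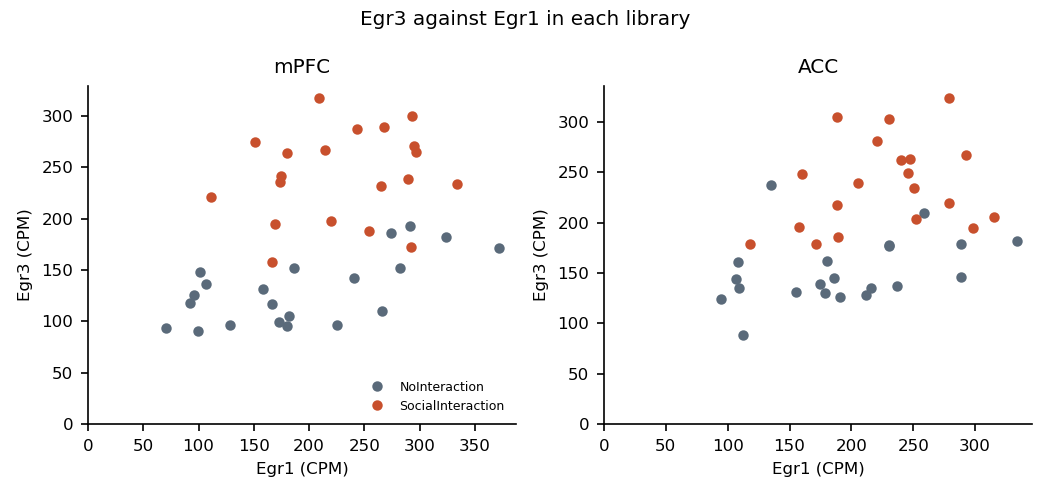
Egr3 against Egr1 (both in CPM, linear axes from 0) in each library of the mPFC and the ACC, coloured by set. Along Egr1 the sets cover much of the same range (70.6 to 372 CPM without and 111.4 to 334.3 CPM with social interaction in the mPFC). Along Egr3, 17 of 20 SocialInteraction libraries in the mPFC (158 to 318 against 90.4 to 193 CPM) and 10 of 20 in the ACC lie above every NoInteraction library.

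Within groups, Egr1, Egr2 and Egr4 went up and down together from mouse to mouse. After each group's mean was removed, mouse means over the 5 regions without the Nacc gave, across 41 mice, a Pearson r of 0.88 for Egr1 with Egr2 (Spearman rho 0.87, permutation test, adjusted p = 5e-05 for both, r = 0.87 without the 2 farthest mice). For Egr1 with Egr4, r was 0.81 (rho 0.80, adjusted p = 5e-05 for both, 0.78 without 2 mice), and for Egr2 with Egr4 it was 0.80 (rho 0.78, adjusted p = 5e-05 for both, 0.76 without 2 mice). Egr3 gave r = 0.41 with Egr4 (permutation test, unadjusted p = 0.019, adjusted p = 0.066, rho 0.34, adjusted p = 0.1, r = 0.36 without 2 mice), 0.30 with Egr2 (adjusted p = 0.14, rho 0.30, adjusted p = 0.12) and 0.23 with Egr1 (adjusted p = 0.23, rho 0.24, adjusted p = 0.21). All pairs but the first 3 had an adjusted p for r of 0.066 or above, and 1 of these 12, Egr3 with Nab1, passed by rank (rho -0.44, adjusted p = 0.025, r = -0.38). These pairs were also computed after the values were seen, and the difference between 2 correlations was not tested.

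The genes most like each member were found from the Pearson correlation of log2(CPM + 0.5) across the 41 libraries of a region, averaged over the 6 regions. The libraries share depth, set and dissection, so these values are descriptions. Nearest to Egr1 were Nr4a1 (mean r 0.79), Fos (0.76) and Dusp6 (0.76), nearest to Egr2 were Fos (0.66), Arc (0.65) and Nr4a1 (0.63), and nearest to Egr4 were Junb (0.77), Gadd45b (0.64) and Arc (0.64), immediate early or activity-induced genes. Nearest to Egr3 were Baiap2 (0.78) and Homer1 (0.72), which encode postsynaptic scaffold proteins, and Ubtf (0.71), which encodes a factor of ribosomal RNA transcription. Nab2 was nearest to Klf10 (0.59), Spata2l (0.59) and Ier5l (0.58), and Nab1 to Plcxd3 (0.58), Tenm3 (0.55) and Slc8a1 (0.55).

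Other genes of the pathway were counted in 5 lists. Of 16 early response factors and effectors, Fosb, a partner of JUN proteins in AP-1, was higher with social interaction in 5 regions, by 0.85 in the mPFC (adjusted p = 0.000125), 0.81 in the DMT, 0.67 in the ACC, 0.45 in the vHipp and 0.44 in the BLA. Fosl2, another AP-1 member, was higher by 0.59 in the mPFC, 0.36 in the ACC and 0.43 in the DMT, and Ier5 by 0.26 in the ACC. DESeq2 also called Ier5 in the mPFC. The other 13 were called in no region by either tool, among them Fos (mPFC 0.31, SE 0.36, adjusted p = 0.71), Arc (mPFC 0.42, SE 0.30, adjusted p = 0.49) and Npas4 (mPFC 0.30, SE 0.29, adjusted p = 0.64). Over the 6 regions, edgeR's quasi-likelihood test called 9 of this list's 96 tests higher. By region these were 2 (mPFC), 3 (ACC), 2 (DMT), 1 (BLA), 1 (vHipp) and 0 (Nacc) of the 16 genes. Taken in that order, the shares of all genes called higher were 4.81%, 2.42%, 1.04%, 0.825%, 0.821% and 0%. The list's median difference was 0.21 in the mPFC and 0.19 in the ACC, beside medians of -0.002 and -0.003 over all genes.

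Of 8 genes that feed back on MAPK signalling, 5 were higher in the mPFC, 3 in the ACC and, outside the frontal cortex, 2 in the vHipp and 1 in the BLA, beside 4.81%, 2.42%, 0.821% and 0.825% of all genes. Dusp4, a MAPK phosphatase, was higher by 0.37 in the mPFC (adjusted p = 0.0185). Spry4 and Spry2, inhibitors of receptor tyrosine kinase signalling, were higher by 0.35 (adjusted p = 0.00141) and 0.23 (adjusted p = 0.000125) there. Spred1, a related inhibitor, was higher by 0.20 (adjusted p = 0.00379). The list's median difference in the mPFC was 0.22. Of 14 upstream kinases and factors, 3 were higher and 2 lower in the mPFC, beside 4.81% and 2.59% of all genes, among them Rps6ka3, which encodes the kinase RSK2 (0.14, adjusted p = 0.000275), Mapk3, which encodes ERK1 (-0.18, adjusted p = 0.015), and Rps6ka1, which encodes RSK1 (-0.12, adjusted p = 0.0429). Mapk3 was also lower in the ACC (-0.17, adjusted p = 0.00203), and Creb1 was higher in the BLA (0.09, adjusted p = 0.0425). Of 13 described EGR target genes, 12 or 13 could be tested in a region, and 0 of the 74 tests over the 6 regions were called by edgeR's quasi-likelihood test or by DESeq2, with 7 at an unadjusted p under 0.05 in each. For 12 NAB and NuRD partners, 0 of 72 tests were called by either tool, also with 7 at an unadjusted p under 0.05. Beside these 2 lists, 0% to 4.81% of all genes were called higher and 0% to 2.59% lower in a region. An unadjusted p under 0.05 (edgeR's quasi-likelihood test) was held by 3081 of 15812 genes in the mPFC and 2671 of 15722 in the ACC. It was held by 2360 of 15992 genes in the BLA and 2027 of 15722 in the vHipp. In the DMT these were 2008 of 15847 genes and in the Nacc 391 of 15881. On counts summed per mouse, 1 of the 12 partners, Chd4, was called lower and 0 of the 13 EGR targets were called. On these sums 4.71% of all genes were called higher and 3.85% lower.

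Markers of cell types and neighbouring areas were followed in 16 lists. Those of neighbouring tissue had uneven medians between the sets in some regions, although edgeR's quasi-likelihood test called 0 of 28 choroid plexus, 0 of 36 inhibitory neuron and 0 of 29 olfactory bulb marker tests over the 6 regions (6, 2 and 5 at an unadjusted p under 0.05), and DESeq2 called 1, the olfactory bulb marker Cdhr1. In the DMT the median log2 difference was 1 over 5 choroid plexus and 0.57 over 6 inhibitory neuron markers, beside 0.70 for Egr3, although the medians of the summed lists were 29.8 and 72.4 CPM for choroid plexus but 73.3 and 52.7 CPM for inhibitory neurons, without and with social interaction. Choroid plexus markers had a median of -1.45 in the vHipp, and 5 olfactory bulb markers -0.94 in the ACC and -0.57 in the Nacc, where their summed levels reached 147.8 and 104.2 CPM without but 25.9 and 22.5 CPM with social interaction. Of 6 endothelial markers, Ly6c1 was higher with social interaction in 5 regions (0.26 to 0.34), while the summed list ran from 132.9 to 201.5 CPM without and from 125.7 to 201.6 CPM with social interaction in the mPFC. In the ACC, the astrocyte marker Gja1 (-0.10, adjusted p = 0.041) and the microglia marker P2ry12 (-0.17, adjusted p = 0.00349) were lower, each as 1 of 6 in its list. Neuron markers summed to 6862.6 to 8293.9 CPM without and 6453.9 to 8377.5 CPM with social interaction in the mPFC, and 0 of 36 neuron marker tests over the 6 regions were called by edgeR's quasi-likelihood test or by DESeq2, with 3 at an unadjusted p under 0.05 in each. The part of these markers in the Egr3 differences was not tested.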

How the data were processed

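RNA was sequenced from 246 samples of pooled bilateral brain punches (41 mice, 6 regions), with poly(A) selection and a stranded kit. The authors deposited estimated counts per gene, made with salmon as the table's name gives and not scaled for depth or length. The submitters' processing notes also name STAR, DESeq2 and the build GRCm39 (mm39), without versions. Estimated counts were rounded (12.12% were not whole). Gene types, exon lengths and GRCm38 positions came from GENCODE M21 (52073 identifiers matched). Groups and mouse numbers came from the sample labels.

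Genes annotated as protein coding entered a region's test when their counts summed to 100 or more and were above 0 in 6 or more libraries, and were tested with edgeR 4.0.16 in R 4.3.3 (TMM, quasi-likelihood test, 6 group means, Benjamini-Hochberg adjustment over all genes tested). The scripts were tested on simulated data. Displayed levels are CPM with TMM factors over all libraries. Tests of single values, with 18 exact tests and 30 tests of order, were permutation tests on log2(CPM + 0.5). Regions of a mouse were paired by the mouse number in the labels. Matplotlib 3.10.9, SciPy 1.17.1, pandas 2.3.3 and NumPy 2.4.6 were used under Python 3.11.15.

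The members, gene lists and marker lists were chosen with earlier results of these data known. The text names the 6 members, up to 4 called genes per list by their mean absolute difference over regions, and the 3 genes most correlated with each member. Other genes named were chosen after their values were seen, as were the ratio tests, the tests within runs of mouse numbers, the mouse means without the Nacc, the member pairs, the blocks of 32 mouse numbers and the removal of libraries that stood apart. Alternatives were DESeq2 1.42.0, RLE size factors, no filter, all gene types, an additive model, blocks of mouse numbers, and leaving out single mice, the Nacc or its mismatched libraries. Each library holds the pooled bilateral punches of 1 region of 1 mouse, and depth leaves Egr2 in the DMT, at 0 to 6 counts, unmeasured.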

Additional observations from a re-analysis of the deposited data

Results flagged for a closer look

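In 12 of 210 groups of 6 or 7 libraries (5.71%), the highest or lowest library lay far from the rest by Dixon's criterion at 95%, which chance flags in about 1 of 20 groups. They came from 9 mice. In the BLA, 1 ELA_SAFit2 mouse with social interaction was highest in Egr1 (153 CPM, the others 108 to 124) and in Egr3 (154 CPM, the others 121 to 130). Egr1 was lowest in 1 Ctrl_Veh NoInteraction library of the Nacc (116 CPM, the others 151 to 177), and Egr2 highest in 1 Ctrl_Veh NoInteraction library of the mPFC (15.7 CPM, the others 1.49 to 3.3).

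Egr4 was far from the rest in 3 groups of the DMT, at 0.141 CPM in 1 Ctrl_Veh NoInteraction library (the others 0.476 to 0.828), at 1.02 CPM in 1 Ctrl_Veh SocialInteraction library (0.459 to 0.603) and at 5.59 CPM in 1 ELA_SAFit2 SocialInteraction library (0.247 to 0.982). In the vHipp it was 9.55 CPM in 1 Ctrl_Veh NoInteraction library (5.39 to 6.43). Nab2 was 49.4 CPM in 1 Ctrl_Veh NoInteraction library of the BLA (35.4 to 39.8), 13.8 CPM in 1 ELA_Veh SocialInteraction library of the DMT (17.8 to 19.9), 37.3 CPM in 1 ELA_Veh SocialInteraction library of the Nacc (44.9 to 51.2) and 55.4 CPM in 1 Ctrl_Veh SocialInteraction library of the vHipp (43.6 to 47.3).

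The response of Egr3 to social interaction differed between regions in the tests of the difference itself. Values were 0.54 for the mPFC, -0.47 for the Nacc and -0.45 for the vHipp, each against the mean of the other regions on the log2 scale. The Nacc value includes its mismatched libraries and was not fitted without them. The Nacc and vHipp calls did not pass in every alternative, as given below.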

How the results depend on the processing

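Of the 5 pooled calls, blocks of 16 mouse numbers left 1, with fewer samples in the comparison. The removal of libraries standing apart, also with fewer samples, gave 2 calls in 29 tests, Egr3 in the mPFC and ACC. No BLA library stood apart by the limit of 3 times the region's own median. The BLA was therefore not refitted, and its Egr3 call was not put to this check. DESeq2, RLE size factors, no filter, all gene types, an additive model and blocks of 32 numbers gave 5 each. Leaving out the mismatched Nacc libraries changed the fit of the Nacc alone. None of the 5 calls lay in the Nacc, so this alternative could not remove any of them. Blocks of 32 do not separate set from run for mice numbered up to 64. The 3 calls within conditions became 5 with DESeq2, which added Egr3 of ELA_Veh mice in the mPFC (adjusted p = 0.00686) and ACC (adjusted p = 0.0343), and 0 with blocks of 16 (edgeR's quasi-likelihood test). The 2 calls on counts summed per mouse became 4 with DESeq2 and 4 without the Nacc. The 3 differences of the Egr3 response between regions became 1 without a filter, where the adjusted p was 0.0648 for the Nacc and 0.0501 for the vHipp, and the Nacc was at 0.052 with RLE factors. Here the cause was not tested. With the mouse as replicate block, 3 were called as well, so this pairing by mouse changed no call. For the order of levels, 15 steps passed with pairing by mouse and 13 without that block. Without 1 mouse at a time, the difference of group means of log2(CPM + 0.5) for Egr3 stayed between 0.882 and 0.942 in the mPFC, 0.611 and 0.674 in the ACC, 0.26 and 0.304 in the BLA and 0.485 and 0.609 in the DMT, and that for Nab2 in the DMT between 0.222 and 0.261. Blocks of 16 moved several uncalled values: Egr1 from 0.27 to 0.74 in the mPFC and from 0.24 to 0.70 in the ACC, Egr2 from 0.68 to 1.33 and from 0.70 to 1.37, Egr4 from 0.22 to 0.58 in the ACC and from 0.41 to -0.05 in the DMT. The 14 ratio tests that passed became 0 within runs of 16 numbers, with fewer mice, and leaving out the Nacc kept the number of tests passed on mouse means at 3. These last 2 alternatives were chosen after seeing the data.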
